A study of Rattus norvegicus with 17 samples.

Results

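The genes described here are those of the cytosolic ribosomal proteins, in fetal rat testis after exposure in utero to dipentyl phthalate (DPeP), a plasticizer known to lower fetal testosterone. They were taken by name: symbols that begin with Rpl or Rps and a digit, without the S6 kinase genes and without copies named -like, and with a mean TPM (counts divided by gene length and scaled to a common sum) of at least 10 over all libraries. The rule found 97 identifiers, of which 70 reached that minimum and 27 did not, among 30560 genes in all. Of the 70 genes, 39 are named Rpl and 30 are named Rps. The remaining gene, Rps19bp1, encodes a protein that binds Rps19 and is not itself part of the ribosome. The 3 genes just inside the minimum, by the authors' deposited TPM, were Rpl36a on chromosome 10 (13.6), Rpl37 (15.6) and Rpl8 on chromosome 3 (20.9), and just outside were Rpl32-ps3 (8.00) and Rpl35a (5.43). Some well-known genes of the family, such as Rpl10, Rpl13a and Rpl41, were not analysed here.

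Wild-type Sprague Dawley dams were gavaged from gestational day 17 to 21 with corn oil alone (vehicle, 3 libraries) or with DPeP in corn oil at 1, 11 or 100 mg/kg/d (3 libraries each) or 300 mg/kg/d (5 libraries), all in 2.5 mL/kg. Fetal testes were taken on gestational day 21, and a library held the polyA-selected RNA of a single testis or of 2 testes pooled within a litter. The sources do not say that each library had a dam of its own, so the p-values measure the spread between these libraries only. Each library is named below by its dose and the replicate number of its label. All comparisons with vehicle use the same 3 vehicle libraries.

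A eukaryotic ribosome joins a small 40S subunit, which reads the mRNA, to a large 60S subunit, which forms the peptide bond and lets the new chain leave through a tunnel. Its proteins are made in matched amounts, and most of their mRNAs begin with a 5′ terminal oligopyrimidine (TOP) tract, a C followed by a run of C and T, through which mTOR signalling and the protein Larp1 control their translation and stability together. In most tissues these mRNAs are among the most abundant of all, and many processed copies of them lie in rodent genomes.

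The start regions of 6 of the genes are shown because these genes lay at the 2 ends of the response in the libraries 05 and 18 at 100 mg/kg/d, described further on, and were chosen for that after their values were seen. They come from RefSeq on build GRCr8, run 5′ to 3′ on the gene's strand from 40 bases before the annotated start to 20 bases from it, and the capitals mark the longest run of C and T that touches the 10 bases on either side of the start. Rpl26, Rps27 and Rps3a were the highest of the matched genes in those libraries (chr10:54109652-54109711 on the plus strand, chr2:177964587-177964646 on the minus strand and chr2:173827023-173827082 on the minus strand), and Rps2, Rpl12 and Rpl7a were the lowest (chr10:14251808-14251867, chr3:36661900-36661959 and chr3:30637096-30637155, all on the plus strand).
Rpl26: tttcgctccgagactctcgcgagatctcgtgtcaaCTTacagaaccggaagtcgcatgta
Rps27: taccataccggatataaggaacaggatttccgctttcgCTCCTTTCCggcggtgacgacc
Rps3a: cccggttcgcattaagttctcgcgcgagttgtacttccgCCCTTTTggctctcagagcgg
Rps2: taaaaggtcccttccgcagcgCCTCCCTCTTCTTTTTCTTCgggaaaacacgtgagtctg
Rpl12: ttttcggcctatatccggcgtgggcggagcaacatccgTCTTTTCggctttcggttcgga
Rpl7a: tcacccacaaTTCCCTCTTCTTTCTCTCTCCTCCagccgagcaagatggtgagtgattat

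Runs of C and T at the start were common in the family. RefSeq windows from 250 bases before to 50 after the start matched 49 of the 63 genes looked for by symbol and chromosome, and the other 14 genes, like the single-exon copies, were not searched. A run of at least 8 C and T near the start was present in 32 of these 49 windows (65.3%), against 12.9% of the 19005 windows of protein-coding genes. The run was 10.0 bases long at the median in the family and 4.0 bases over all protein-coding genes. Searched on both strands, the motif CGGAAG, the core that ETS factors bind, was in 26 windows (53.1%, against 20.6% of all). TATAAA was in 5 windows (10.2%, against 13.1% of all), and AAGATGGCG, the core of the YY1 motif, in 1 (2.04%, against 2.29% of all). The other motif searched, a palindrome with CG pairs at its centre, was in 7 windows (14.3%, against 0.600% of all). The start region of Rpl26 printed above holds that palindrome. Among the genes called higher in the libraries 05 and 18 taken alone, 27 of 40 windows held such a run, and among the others 5 of 9 did. As printed above, Rps2 and Rpl7a carried longer runs than Rpl26, whose longest run at the annotated start was CTT. These are matches of letters in RefSeq windows and not measurements of these samples.

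The family was among the most abundant in the fetal testis. The median over the 70 genes of the mean TPM was 1365, and 44 of the 100 genes with the highest TPM belonged to the family. The rule itself set a minimum of 10 TPM, so these levels are a description; the median over the 18005 genes tested, which had no such minimum, was 15.4. Levels reached at least 500 TPM in 58 genes and at least 1000 TPM in 44. Rps16, a 40S protein that contacts the initiator tRNA, was the highest at 3905 TPM, followed by Rpl32 at 3738, Rps15 at 3513, Rps12 at 3268 and Rpl19 at 3238 TPM. Rps20, Rps28, Rps3a, Rpl4 and Rpl27 completed the 10 highest, between 2629 and 3077 TPM. The median over the Rps genes was 1583 TPM and that over the Rpl genes 1226 TPM. Within each library the median log2 TPM of the Rps genes exceeded that of the Rpl genes by 0.29 to 0.46, highest in library 05 at 100 mg/kg/d. The proteins are needed in equal numbers per ribosome. Over the 70 genes the levels per length spanned from 14.0 TPM (Rpl36a on chromosome 10) to 3905 TPM. The lowest is a single-exon copy with at most 0.800% of its symbol's counts, so it does not give the mRNA level of that protein.

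**Figure D1:**
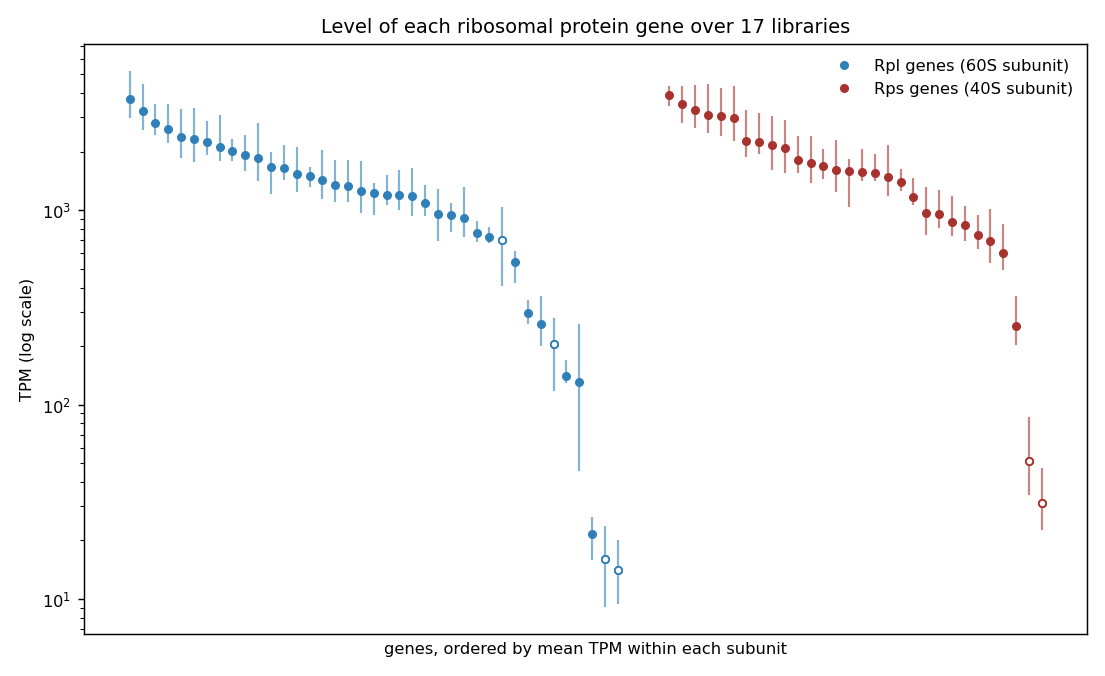
Mean TPM (log scale) of 39 Rpl and 30 Rps genes, ordered within each subunit, with lines from the lowest to the highest of 17 libraries. Open circles mark the 6 genes annotated with a single exon, which hold 4 of the 5 lowest levels; 58 of the 70 genes reach 500 TPM.

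Several of the lowest levels belonged to copies. Of the 70 genes, 6 are annotated with 1 exon, as retrotransposed copies are: Rpl12 on chromosome X, Rpl30, Rpl36a and Rpl37 on chromosome 10, Rps4x on chromosome 4 and Rps27a-ps1. With these left aside, the median of the others was 1493 TPM. For 5 symbols (Rpl12, Rpl30, Rpl36a, Rpl8 and Rps4x) the table held a pair of identifiers on different chromosomes. Reads from near-identical copies cannot be told apart with certainty, and the rule for reads that match several places was not stated, so the split of counts within such pairs is uncertain. The length used for TPM is the sum over all annotated exons, and this divisor was long for Rpl30 on chromosome 7 (4569 bases, 130 TPM), which had more CPM than its copy on chromosome 10 (491 bases, 705 TPM) in most libraries.

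Library depth ranged from 14282274 to 20323488 gene counts. Markers of the labelled tissue were present in every vehicle library: Cyp17a1 of Leydig cells at 1285 to 1625 CPM, Amh of Sertoli cells at 1176 to 1618 CPM and Ddx4 of germ cells at 51.5 to 69.8 CPM. These values were scaled to the library's total of gene counts. Unless said otherwise, CPM elsewhere are counts scaled to the TMM library size. In the fit of all libraries with edgeR's quasi-likelihood test and Benjamini-Hochberg adjustment, of 8 markers of Leydig cells, 7 passed as lower at 300 mg/kg/d and 6 at 100 mg/kg/d, against 253 and 185 of all 18005 genes. The libraries 05 and 18 of the 100 mg/kg/d group differed from all others in the share of counts on the mitochondrial chromosome, 9.05% and 7.76%, where the other 15 had 4.35% to 6.16%. Results at 100 mg/kg/d are therefore given with and without them. In these bulk samples a change in the number of cells of a type and a change of RNA per cell cannot be told apart.

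The share of all gene counts that fell on the 70 genes was similar in 4 of the 5 groups. In vehicle it was 4.09%, 4.75% and 4.85% (mean 4.57% ± 0.417, SD, n = 3). At 1 mg/kg/d it was 4.34%, 3.78% and 4.42% (4.18% ± 0.351, n = 3), and at 11 mg/kg/d 4.35%, 4.47% and 4.02% (4.28% ± 0.230, n = 3). All 6 of these libraries lay within or below the vehicle range, and the groups overlapped. At 100 mg/kg/d the 3 libraries split: 6.82% in library 05, 6.15% in 18 and 4.35% in 19 (5.77% ± 1.28, n = 3). At 300 mg/kg/d the 5 libraries lay close together, at 4.78%, 4.75%, 4.79%, 4.81% and 4.48% (4.72% ± 0.137, n = 5), all inside the vehicle range. In TPM the share was 12.9% and 12.4% in libraries 05 and 18, 9.75% in library 19 and 8.76% to 10.7% in the 15 libraries other than 05 and 18. No test was made of these shares, which are sums over a chosen list.

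**Figure D2:**
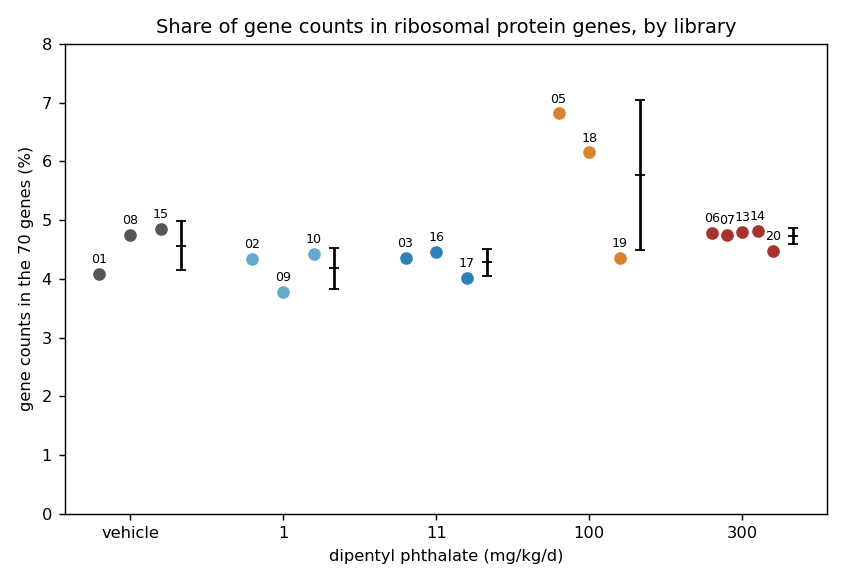
Share of gene counts (%) in the 70 genes, by dose of DPeP; points are libraries with their replicate numbers, and bars give the mean and SD of each group. Libraries 05 and 18 at 100 mg/kg/d lie at 6.82% and 6.15%, above the 3.78% to 4.85% of the other 15.

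Gene by gene, the family moved as a block within a library. In each library the log2 CPM (with TMM-scaled library sizes) of each gene was set against its vehicle mean, and the median of these differences was taken over the 70 genes. The vehicle libraries themselves differed by this measure, with medians of -0.16 in 01, 0.06 in 08 and 0.11 in 15. At 1 mg/kg/d the medians were -0.12, -0.29 and -0.04, and at 11 mg/kg/d they were -0.08, -0.06 and -0.25. Library 09 at 1 mg/kg/d was the lowest of all 17 libraries for 42 of the 70 genes, against 10% of all genes tested. At 100 mg/kg/d the medians were 0.73 in library 05, 0.50 in 18 and -0.15 in 19, and 66, 65 and 9 of the 70 genes lay above their vehicle mean. Both 05 and 18 exceeded all other libraries for 56 of the 70 genes, against 14.6% of all genes tested. At 300 mg/kg/d the medians were 0.06, 0.01, 0.07, 0.05 and -0.08. Over all genes tested, the median difference of a library never left the range -0.00 to 0.04.

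**Figure D3:**
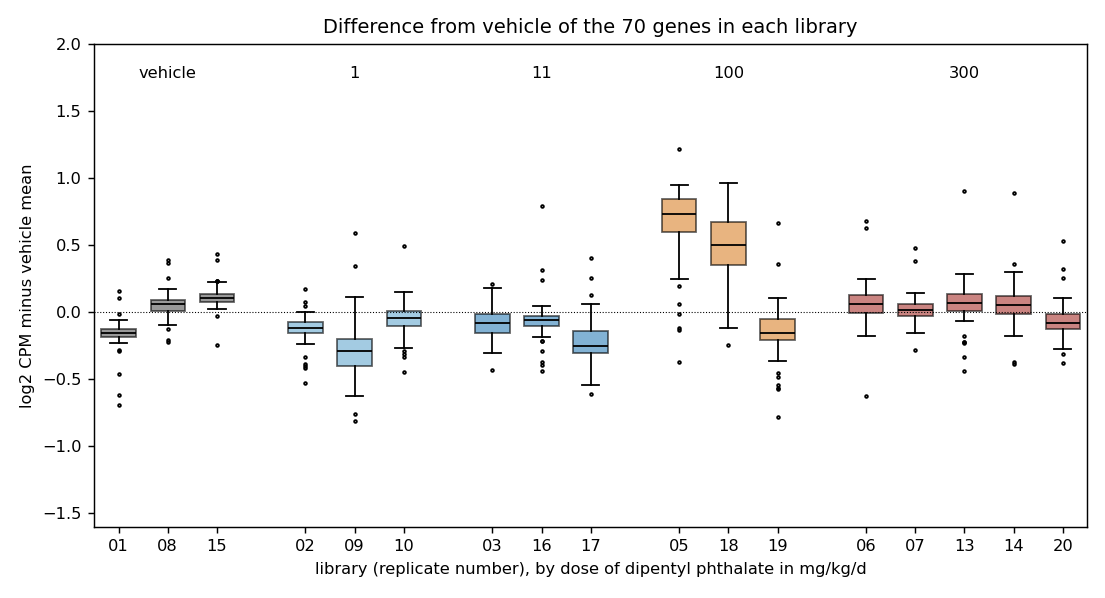
Log2 CPM minus the vehicle mean for the 70 genes in each of 17 libraries, by dose; boxes span the quartiles with the median, whiskers reach 1.5 times that span and points lie beyond. The medians of libraries 05 and 18 are 0.73 and 0.50, and those of the other 15 lie between -0.29 and 0.11.

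At 1 mg/kg/d no gene of the family passed edgeR's quasi-likelihood test at an adjusted p under 0.05, and none of the 18005 genes tested did (0%). The family leaned to lower values, with 66 of 70 log2 fold changes below 0 and a median of -0.15, against 0.01 over all genes. At an unadjusted p under 0.05, 2 genes were lower, against 2.17% of all genes, and DESeq2 called none of the 70 and 0% of all. The 2 genes were Rps27a-ps1 and Rpl30 on chromosome 7. This 60S protein gene had 289, 232 and 286 CPM in vehicle and 201, 82.2 and 197 CPM at 1 mg/kg/d. All 3 dosed libraries were below all vehicle libraries for Rpl30 on chromosome 7, most of all library 09, and the log2 fold change was -0.75 ± 0.35 (SE), with adjusted p = 0.864. In all, 4 of the 70 genes had every dosed library below every vehicle library, against 7.65% of all genes: Rpl30 on chromosome 7, Rps27a-ps1, Rps4x on chromosome 4 and Rpl21. None had every one above, against 6.47% of all genes. The count at an unadjusted p under 0.05 depended on which libraries shared the fit. It was 4 with the vehicle and 1 mg/kg/d libraries alone and 12 without library 19 at 100 mg/kg/d, all lower. None of the 70 was called in either fit, and the share of all genes at that threshold was not taken there.

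At 11 mg/kg/d the test by edgeR likewise called none of the 70 genes and 0% of all genes, with none of the 70 at an unadjusted p under 0.05, against 3.52% of all genes, and none called by DESeq2, against 0.144%. With the vehicle and 11 mg/kg/d libraries alone 4 genes were at that unadjusted threshold, and without library 19 at 100 mg/kg/d 5 were, all lower. None of the 70 was called in either fit, and the share of all genes at that threshold was not taken there. The median log2 fold change was -0.13, against 0.01 over all genes, and 65 of 70 were below 0. Rpl39, a small protein of the 60S tunnel, had 65.5, 85.8 and 91.6 CPM in vehicle and 66.1, 70.5 and 56.3 CPM at 11 mg/kg/d, so the groups overlapped. Rps27a-ps1, Rpl36a on chromosome X, Rpl31 and Rpl23 had all 3 dosed libraries below all vehicle libraries, 4 of 70 genes against 6.94% of all genes, and their adjusted p was 0.992 each. None had all 3 above, against 5.28% of all genes. The highest log2 fold change was that of Rpl12 on chromosome X, 0.42 ± 0.21 with adjusted p = 0.992.

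At 100 mg/kg/d the family was higher in 2 libraries and not in the third, and with all 3 libraries no gene passed the test. None of the 70 genes was called by edgeR, against 1.52% of all genes in either direction and 0.494% as higher. At an unadjusted p under 0.05, 46 were higher and 1 was lower, against 10.5% and 8.68% of all genes. These counts rest on a spread shared by all groups. In an edgeR fit of the vehicle and 100 mg/kg/d libraries alone, 8 were at that threshold, all higher. None of the 70 was called there, against 45 of 17113 genes, and the median log2 fold change stayed at 0.42. DESeq2 called 7 higher (Rps27, Rpl32, Rpl35, Rpl31, Rpl26, Rpl19 and Rps18), against 1.88% of all genes. The median log2 fold change was 0.42, against 0.05 over all genes, and 66 of 70 were above 0. None had all 3 libraries above or all 3 below the vehicle libraries, against 7.14% and 7.89% of all genes.

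The split of the 3 libraries showed in single genes. Rps27, a 40S protein with a zinc finger, had 443, 517 and 529 CPM in vehicle and 922, 822 and 488 CPM in libraries 05, 18 and 19. Libraries 05 and 18 were above every other library for Rps27, and library 19 lay inside the vehicle range, with a log2 fold change over the group of 0.58 ± 0.17 and adjusted p = 0.0809. Rpl26, a 60S protein near the mouth of the tunnel, had 808, 983 and 953 CPM in vehicle and 1685, 1551 and 855 CPM at 100 mg/kg/d (log2 fold change 0.58 ± 0.17, adjusted p = 0.0908). Rpl32 had 692, 812 and 781 CPM in vehicle against 1348, 1291 and 736 CPM, with adjusted p = 0.0746. Rps6, the 40S protein that S6 kinase phosphorylates, had 1340, 1593 and 1597 CPM in vehicle against 2749, 2373 and 1321 CPM. In each of these 4 genes libraries 05 and 18 were the highest of all 17, while library 19 lay inside the vehicle range or, for Rps6, below it.

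Without library 19, the same test on libraries 05 and 18 called 56 of the 70 genes higher, against 12% of the 18316 genes then tested, and 1 lower, against 11.2%. The median log2 fold change was then 0.64, against 0.03 over all genes. Of the Rps genes, 28 of 30 rose and 1 fell, and of the Rpl genes 27 of 39 rose. Without libraries 05 and 18, with library 19 as the lone sample of its group, taken to have the spread of the others, none was called, against 0.387% of all genes, and the median was -0.17, the opposite sign. Without library 05 the median was 0.17. Libraries 05 and 18 were left out because earlier results of these data had set them apart. The fit without library 19 drops the library in which the family was not higher, so it picks libraries by the family's own values. It called 4250 of 18316 genes in either direction, against 274 of 18005 in the fit of all libraries. Its calls and adjusted p describe libraries 05 and 18 and do not test the dose.

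**Figure D4:**
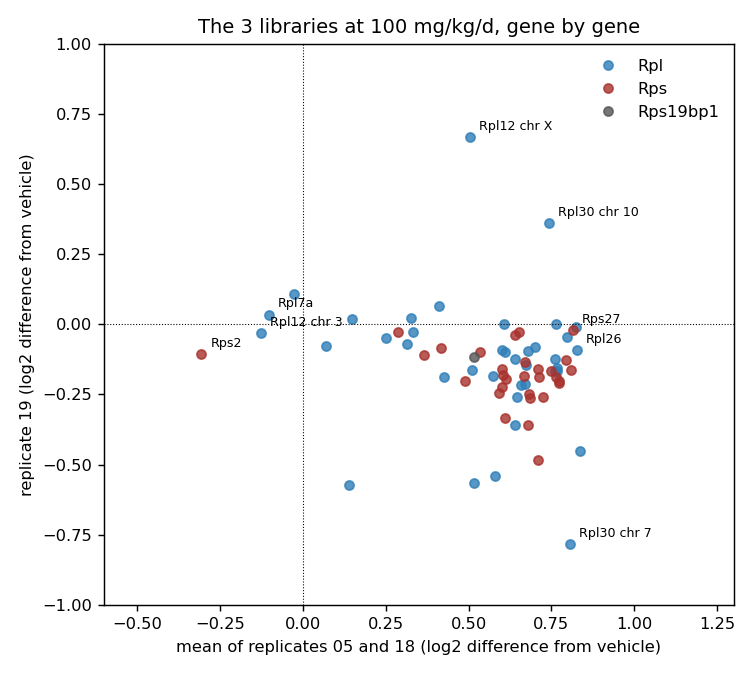
Each point is 1 of the 70 genes: on the x axis its mean log2 difference from vehicle in libraries 05 and 18, on the y axis its log2 difference in library 19 at the same dose. Most genes lie right of 0 and below 0; Rps2, Rpl12 on chromosome 3, Rpl7a and Rpl18 lie left of 0, and Rpl12 on chromosome X is high in all 3 libraries.

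The genes that rose in libraries 05 and 18 covered most parts of the ribosome. The counts by role that follow are subsets of the 56 of 70 genes called higher without library 19, in a fit where 12% of all genes were called higher. The genes share the same libraries, picked by the family's own values, so these counts are a description and not separate evidence. All 9 measured proteins listed for the 60S exit tunnel and its rim were called higher, with a median log2 fold change of 0.60, among them Rpl4 (0.42), Rpl39 (0.57) and Rpl19 (0.75). Rpl5 and Rpl11, which carry the 5S rRNA into the 60S subunit and also bind the p53 inhibitor Mdm2, rose by 0.76 and 0.67. Rpl5 had 1222, 1423 and 1384 CPM in vehicle and 2368, 2177 and 1194 CPM in libraries 05, 18 and 19. On the 40S subunit, 6 of the 7 proteins listed for the mRNA entry and decoding side rose and Rps2 fell, and all 5 listed for the mRNA exit side and platform rose, with Rps14 at 0.67. Of 17 genes of the family that are mutated in Diamond-Blackfan anaemia, an inherited failure of red cell production, 16 rose, with a median of 0.73, among them Rps19 (0.70), and Rpl18 did not pass. These fold changes compare libraries 05 and 18 with the 3 vehicle libraries, and the same lists had no called gene once all 3 libraries at 100 mg/kg/d were used.

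In the same fit 13 of the 70 genes were not called higher or lower, and 1 was lower. Rps2, which lies at the mRNA entrance next to Rps3, had 619, 690 and 706 CPM in vehicle and 519, 566 and 623 CPM in libraries 05, 18 and 19. It was the only gene of the family called lower in the fit without library 19 (log2 fold change -0.31 ± 0.10, edgeR adjusted p = 0.0308). That fit picks libraries by the family's own values. In the fit of all libraries Rps2 was not called (log2 fold change -0.24 ± 0.10, edgeR adjusted p = 0.222). Its neighbour Rps3 had 825, 837 and 992 CPM in vehicle and 1384, 1107 and 767 CPM at 100 mg/kg/d. Rpl12 on chromosome 3, which sits at the base of the 60S stalk, had 550, 627 and 679 CPM in vehicle and 562, 568 and 604 CPM in these libraries, and Rpl7a had 686, 823 and 768 CPM against 698, 711 and 775 CPM. Rpl18, Rpl13, Rpl6, Rpl28, Rpl38, Rps16, both Rpl8 identifiers and the copies Rpl12 on chromosome X, Rpl30 on chromosome 10 and Rpl37 were the others not called, with log2 fold changes from -0.04 for Rpl18 to 0.74 for Rpl37. Not all of these were low: Rpl37, Rpl30 on chromosome 10 (0.69) and Rpl38 (0.48) had folds near the family's median of 0.64 with larger errors (SE 0.32, 0.27 and 0.20).

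Several other measures also differed from vehicle in libraries 05 and 18. Short genes outside the family were higher there too: genes with less than 1000 bases of exon had median differences of 0.53 and 0.32 (1250 genes), against 0.79 and 0.57 for the 35 genes of the family in that class. Among genes of 2000 to 4000 bases the medians were 0.02 and 0.02 outside the family (7224 genes) and 0.73 and 0.57 for the 11 genes within it. A fit with an offset for gene length in each library lowered the median log2 fold change at 100 mg/kg/d from 0.42 to 0.22, with none of the 70 genes called, against 2.37% of all genes. Summed germ cell markers were at 588, 725 and 515 CPM in libraries 05, 18 and 19 against 393 to 471 CPM in vehicle, and 1 of 8 rose in the fit of all libraries, against 0.494% of all genes. Summed endothelial markers were at 241, 287 and 388 CPM against 464 to 466 CPM in vehicle, with 1 of 8 fallen, against 185 of all 18005 genes. Cdh5 was the largest part of the endothelial sum. In libraries 05 and 18 Emcn of that list was higher (36.7 and 28.7 CPM, scaled to gene counts, against 22.2 to 24.2 in vehicle), and the other endothelial markers were lower. The 6 red blood cell markers tested, mostly Hba-a2, did not follow the family: they summed to 8291, 12197 and 11629 CPM in libraries 05, 18 and 19 and 6762 to 8109 CPM in vehicle, and none passed the test. No germ cell or endothelial marker was at 0 in vehicle. The part of gene length, of the mitochondrial share or of cell makeup in the rise of the family was not tested.

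The sample titles also carry a code with 3 values, whose meaning the labels do not give and which each of the 3 vehicle libraries has in a different value. Libraries 05 and 19 share the code of vehicle library 15, and their mean exceeded it by a median of 0.18 over the 70 genes, with 58 genes higher. That mean joins unlike libraries: against the vehicle mean, the family's median was 0.73 in 05, -0.15 in 19 and 0.11 in vehicle 15. Library 18 shares the code of vehicle library 01 and exceeded it by a median of 0.64, with 68 genes higher. With the code as a term in the fit the median at 100 mg/kg/d was 0.46, and none of the 70 genes was called. At 300 mg/kg/d the medians within these codes were -0.08 (against vehicle 15) and 0.17 (against vehicle 01), of opposite sign, and the code of vehicle 08 held no library at 100 or 300 mg/kg/d. The lower doses were split by code too. Against vehicle 15 the medians were -0.41 at 1 and -0.28 at 11 mg/kg/d, while against vehicle 01 they were 0.04 and 0.09, with 53 and 60 of 70 genes higher, and against vehicle 08 the median at 1 mg/kg/d was -0.08. Except at 11 mg/kg/d against vehicle 15, with 2 dosed libraries, each of these low-dose medians sets 1 library against 1. Vehicle 01 had the lowest share of the family among the vehicle libraries (4.09%). The direction differed between codes, and comparisons of so few libraries cannot tell whether the lean holds within a code.

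At 300 mg/kg/d the family showed no called change and small fold changes. By edgeR none of the 70 genes was called, against 2.4% of all genes. At an unadjusted p under 0.05 there was 1 gene, higher, against 7.65% of all genes, and DESeq2 called that gene, against 1.97% of all genes as higher. The median log2 fold change was 0.03, against 0.01 over all genes, with 44 genes above 0 and 26 below. For 69 of the 70 genes the log2 fold change lay between -0.21 (Rps27a-ps1) and 0.15 (Rpl37). Rps27 was at 579, 545, 523, 532 and 524 CPM at 300 mg/kg/d, overlapping the 443 to 529 CPM of vehicle. Rpl38, a 60S protein known for its role in translation of Hox mRNAs, was at 160, 173, 155, 215 and 156 CPM against 132, 191 and 238 CPM in vehicle. Rps4x on chromosome X was at 1209, 1024, 1045, 962 and 974 CPM against 973, 1150 and 1160 CPM.

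The exception was the single-exon Rpl12 on chromosome X (mRatBN7.2, chrX:1196729-1197226, minus strand), with 28.4, 39.7 and 26.0 CPM in vehicle. At 300 mg/kg/d it had 47.6, 43.1, 57.7, 57.0 and 44.7 CPM, all above every vehicle library, as held for 5.82% of all genes, and no gene of the family had all 5 below, against 6.48%. Its log2 fold change was 0.67 ± 0.19 with adjusted p = 0.0683, just short of the threshold. It was called in 4 of 9 alternative fits, with adjusted p from 0.0130 to 0.0442, and when vehicle library 08, library 02 at 1 mg/kg/d or library 19 at 100 mg/kg/d was left out, with adjusted p from 0.0404 to 0.0464. At 1 mg/kg/d it had 27.3, 46.3 and 43.3 CPM, at 11 mg/kg/d 31.5, 53.4 and 40.9 CPM, and at 100 mg/kg/d 38.5, 49.7 and 49.0 CPM. In every dosed group its mean was above that of vehicle.

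Between 300 and 100 mg/kg/d the family was lower at the higher dose through libraries 05 and 18. No gene of the family was called by edgeR, against 0.00555% of all genes. At an unadjusted p under 0.05, 48 were lower at 300 mg/kg/d, against 14.3% of all genes, and DESeq2 called 18 lower, against 3.94%. The median log2 fold change was -0.39, against -0.01 over all genes. Rps3a, a 40S protein, had 2403, 2148 and 1160 CPM at 100 mg/kg/d and 1395, 1296, 1249, 1244 and 1229 CPM at 300 mg/kg/d, with a log2 fold change of -0.57 ± 0.16 and adjusted p = 0.0899. Library 19 was below all 5 libraries at the higher dose for Rps3a, while 05 and 18 were above them. Without library 19, 57 genes were called lower at 300 mg/kg/d, against 16.4% of all genes, in a fit that again picks libraries by the family's own values. Without 05 and 18 none was called, against 0% of all genes, and the median was 0.18. With all libraries, no gene of the family had the 2 groups apart, against 3.37% of all genes above and 2.6% below.

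Along the dose, a slope on log2(dose + 1) over all 17 libraries called 1 of the 70 genes by edgeR, with a positive slope, against 2.74% of all genes so called and 5.72% in either direction. The gene was again Rpl12 on chromosome X, with a slope of 0.07 ± 0.02 in log2 CPM per unit of log2(dose + 1) and adjusted p = 0.0375. The call was lost with the offset for gene length (adjusted p = 0.164) and when any of 7 libraries was left out (vehicle 01 or 15, 02 at 1 mg/kg/d, 18 or 19 at 100 mg/kg/d, 13 or 14 at 300 mg/kg/d), with adjusted p of at least 0.0528. At an unadjusted p under 0.05, 7 genes had a positive slope, against 10.5% of all genes. The median slope of the family was 0.03, against 0.004 over all genes, and 67 of 70 slopes were above 0. Without libraries 05 and 18 at 100 mg/kg/d the median slope was 0.01, and 57 of 70 slopes were above 0.

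Once each library's own level of the family was taken out, most genes kept a steady place. The SD over the 17 libraries of log2 TPM minus the library's median over the 70 genes was among the smallest for Rpl10a (0.06) and Rpl3 (0.06). Rpl3, which lies near the peptidyl transferase centre, ranged from 1273 CPM in library 09 at 1 mg/kg/d to 2570 CPM in library 05, and tracked the family across that range. The largest SDs were those of Rpl30 on chromosome 7 (0.46), Rpl12 on chromosome X (0.41), Rpl30 on chromosome 10 (0.35), Rpl37 (0.33) and Rps2 (0.29). Of these 5 genes, 3 are single-exon copies and Rpl30 on chromosome 7 shares its symbol with one. Across the 70 genes the difference in libraries 05 and 18 had a Spearman rho of -0.25 with log2 exon length and of 0.16 with log2 mean TPM, a description over genes that share the same libraries.

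The split of counts between the 2 Rpl30 loci differed widely from library to library. The locus on chromosome 7 had 289, 232 and 286 CPM in vehicle and the single-exon copy on chromosome 10 had 82.6, 166 and 148 CPM. The copy took from 22.2% (vehicle 01) to 66.2% (library 09 at 1 mg/kg/d) of the symbol's counts. In library 09 the locus on chromosome 7 fell to 82.2 CPM while the copy had 161 CPM, the reverse of the order in vehicle 01. Within each dose group the share of the copy varied widely, at 32.7% ± 9.80 in vehicle, 49.8% ± 14.2, 35.2% ± 10.2 and 38.3% ± 14.5 at 1, 11 and 100 mg/kg/d (SD, n = 3 each), and 36.2% ± 11.6 at 300 mg/kg/d (SD, n = 5). The groups overlapped, and no dose order was seen.

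The Rpl12 pair had 3.69% to 9.15% of the symbol's counts on the chromosome X copy. That share was 4.85% ± 1.13 in vehicle, 6.65% ± 1.78, 6.79% ± 2.25 and 7.32% ± 0.836 at 1, 11 and 100 mg/kg/d (SD, n = 3 each), and 7.89% ± 0.591 at 300 mg/kg/d (SD, n = 5). The multi-exon Rpl12 on chromosome 3 was at 546, 580, 644, 619 and 525 CPM at 300 mg/kg/d, against 550 to 679 CPM in vehicle. The less abundant loci of Rpl36a, Rpl8 and Rps4x took at most 0.800%, 1.17% and 1.28% of their symbols' counts.

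**Figure D5:**
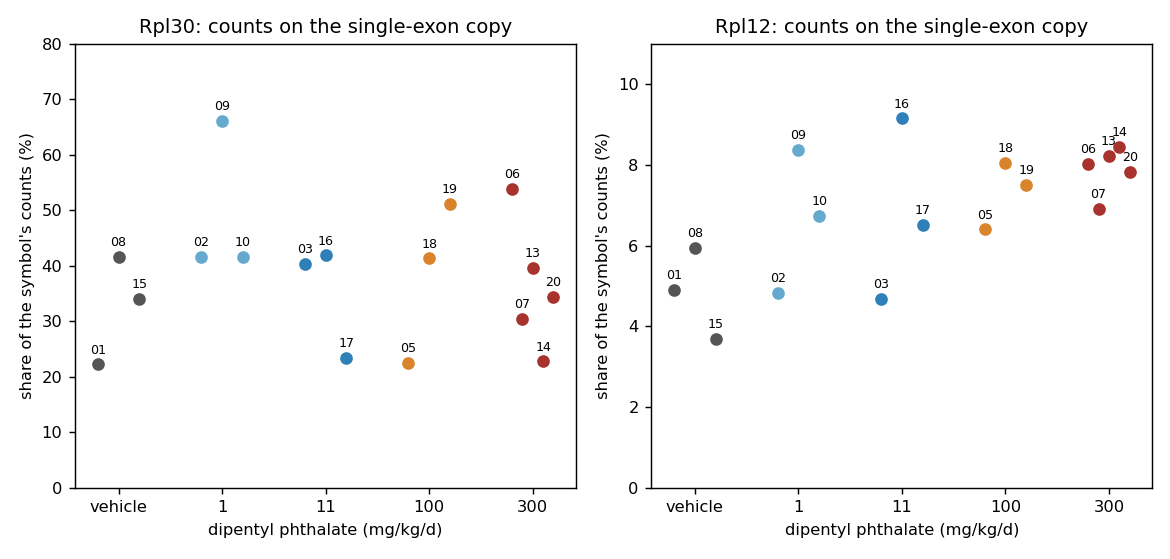
Share (%) of the counts of the symbols Rpl30 (left) and Rpl12 (right) that lay on the single-exon copy, by dose; points are libraries with their replicate numbers. The Rpl30 share ranges from 22.2% to 66.2% without order by dose, and the Rpl12 share from 3.69% to 9.15%, with all 5 libraries at 300 mg/kg/d above the 3 vehicle libraries.

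Most ribosomal proteins whose names fall outside the rule split in the same way, but Rplp2 and Rplp0 did not. Of 7 such genes 6 were measured, none passed the test in any comparison, and their median log2 fold change at 100 mg/kg/d was 0.36. Rplp1, a protein of the flexible 60S stalk, had 937, 1005 and 1075 CPM in vehicle and 1747, 1642 and 934 CPM in libraries 05, 18 and 19. Its stalk partner Rplp2 had 319, 387 and 380 CPM in vehicle and 300, 344 and 357 CPM in those libraries, and Rplp0, which anchors the stalk, 1711, 2054 and 2019 CPM against 2040, 2082 and 2099 CPM. Fau, which encodes a 40S protein fused to a ubiquitin-like one, had 572, 642 and 658 CPM against 1114, 1017 and 588 CPM. Without library 19, in the fit that picks libraries by the family's own values, 4 of these 6 genes were called higher, against 12% of all genes.

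Paralogs that replace a family member in some tissues were also measured. Rpl39l, the paralog of Rpl39 known from male germ cells, had 26.7, 36.1 and 30.5 CPM in vehicle and 66.4, 67.3 and 40.8 CPM in libraries 05, 18 and 19, all 3 above every vehicle library. It rose at 100 mg/kg/d (log2 fold change 0.91 ± 0.16, edgeR adjusted p = 0.00599), as 0.494% of all genes did, but its call was lost without vehicle library 01 (adjusted p = 0.0556), without library 18 (0.0687), without both 05 and 18 (0.328) and in a fit of the 2 groups alone (0.186). At 300 mg/kg/d Rpl39l had 37.9, 37.3, 38.4, 39.9 and 42.3 CPM, and its slope on dose was called (0.09 ± 0.02, adjusted p = 0.0319), though not without vehicle 01, without any 1 library at 1 mg/kg/d, without library 20 at 300 mg/kg/d or with the sample code in the fit, with adjusted p from 0.0526 to 0.0709. Germ cell markers moved with it, as given above, and their part was not tested. Rpl22l1, the paralog of Rpl22, had 110, 135 and 140 CPM in vehicle and 289, 219 and 116 CPM in libraries 05, 18 and 19 (adjusted p = 0.0836), while Rpl22 itself had 199, 224 and 239 CPM against 330, 265 and 194 CPM. Rpl10l, the germ cell counterpart of Rpl10, stayed between 12.1 and 25.7 CPM in all libraries.

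Around the ribosome, few genes of the same functional lists were called. Of 15 translation factors and other genes with TOP mRNAs, none passed at any single dose, against 0% to 2.4% of all genes. The slope called Eef1a1, the factor that brings aminoacyl-tRNA to the ribosome, and 5.72% of all genes. Eef1a1 was at 564 ± 87.0 CPM in vehicle, 520 ± 20.3, 597 ± 29.0 and 678 ± 32.1 CPM at 1, 11 and 100 mg/kg/d (SD, n = 3 each), and 704 ± 27.6 CPM at 300 mg/kg/d (SD, n = 5), with a slope of 0.05 ± 0.01 and adjusted p = 0.00436. That call stood in all 8 alternative fits of the slope and with any library left out. None of 41 genes of ribosome biogenesis, 23 of translation control, which include the mTOR pathway, or 14 chaperones of ribosomal proteins was called at 100 or 300 mg/kg/d. Over all genes 1.52% and 2.4% were called at these doses. The medians of these lists lay between -0.11 and 0.07. Of 71 mitochondrial ribosomal protein genes, Mrpl37 alone was called, lower at both doses. That is near the share of all genes called, so the calls of Mrpl37 and Eef1a1 say little about their lists. Mrpl37 was at 62.0 ± 3.42 CPM in vehicle (SD, n = 3), 44.6 ± 4.56 CPM at 100 mg/kg/d (SD, n = 3; log2 fold change -0.47 ± 0.10, adjusted p = 0.0153) and 49.4 ± 2.66 CPM at 300 mg/kg/d (SD, n = 5; -0.33 ± 0.09, adjusted p = 0.0476). Its slope on dose was also called by edgeR (-0.05 ± 0.01, adjusted p = 0.00436), against 5.72% of all genes. How that slope held in the alternative fits is not given here. The call at 100 mg/kg/d was lost without vehicle 01, vehicle 15 or library 18 (adjusted p from 0.0556 to 0.0869), without both 05 and 18 (0.215) and in a fit of the 2 groups alone (0.359). That at 300 mg/kg/d was lost without any of the vehicle libraries, any at 1 or 11 mg/kg/d, or 06, 07 or 20 at 300 mg/kg/d (0.0557 to 0.263), and with library totals, no low-count filter or the sample code (0.0938 to 0.118). The median of the mitochondrial list was 0.17 at 100 and -0.13 at 300 mg/kg/d, with 66 of 71 genes below 0 at the higher dose.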

How the data were processed

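RNA of 17 fetal testis libraries was sequenced. Per the submitters' processing notes, the tools were Trimmomatic 0.36, STAR 2.5.2b, and featureCounts of Subread 1.5.2, on build mRatBN7.2; strand and multi-mapping settings: not given in the sources used here. The deposited files give, per the file headers, a raw read count, the position and the exon length of each gene. The authors' deposited TPM table, which repeats rows for many genes, is treated as a score and served only the minimum of 10; TPM printed elsewhere were recomputed from counts without the 92 rows of ERCC spike-in RNA. A further deposited table was not used. The library kit does not mark strand, so overlapping and antisense genes carry uncertain counts.

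Counts were tested with edgeR 4.0.16 in R 4.3.3 (quasi-likelihood F test, TMM, filterByExpr by group, 1 fit of all 17 libraries), with Benjamini-Hochberg adjustment over 18005 genes and a threshold of 0.05. SE was taken as |log2 fold change| / sqrt(F). All 70 genes passed the filter. DESeq2 1.42.0 and the other fits were alternatives. The code was tested on simulated data. Genes were named by rule: the 10 highest and 3 lowest TPM, a panel by role, called genes (all, or 5 highest and 5 lowest), the 3 highest and lowest fold changes of each comparison, the 5 most and 3 least variable, and the 2 smallest adjusted p in related lists. Others, such as Rpl31, Rpl21, Rpl23, the genes not called without library 19 and the paralogs, were added after their values were seen. Some genes that this rule selects are not reported here. The members and lists were chosen with earlier results of these data known. Promoter windows of the genes come from RefSeq on GRCr8.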

Additional observations from a re-analysis of the deposited data

Results flagged for a closer look

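Of 44 values checked in the group of 5 libraries at 300 mg/kg/d, 3 had 1 library far from the others, where chance flags about 1 group in 20. Library 20 had 4.48% of its gene counts in the 70 genes, against 4.75% to 4.81% in the other 4. The same library had 769 CPM of Rpl32, against 818 to 834 CPM. Library 13 had 1.93 CPM of the single-exon Rpl37, against 2.66 to 2.93 CPM.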

How the results depend on the processing

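No paired analysis was possible because the replicate numbers in the labels are not shared between groups; the sample code, which is shared, was instead a term in one alternative fit. Counts of the 70 genes called moved in these alternatives: with no low-count filter to 3 (100 against vehicle), 1 (300 against vehicle) and 1 (300 against 100); with DESeq2 to 7, 1 and 18; without libraries 05 and 18, and with the compared groups only, to 1 at 300 against vehicle; and with the length offset to 0 for the slope. The median log2 fold change at 100 mg/kg/d moved to 0.22 with the length offset and -0.17 without libraries 05 and 18, and that of 300 against 100 to -0.20 and 0.18. Without mitochondrial genes in the total, the share was 4.86% in vehicle and 4.40%, 4.52%, 6.25% and 4.99% at 1, 11, 100 and 300 mg/kg/d. Left out one at a time, libraries gave 0 to 57 called genes at 100, 0 to 1 at 300, 0 to 57 for 300 against 100 and 0 to 1 for the slope, and medians of -0.22 to -0.09, -0.20 to -0.07, 0.17 to 0.64 and -0.05 to 0.08 at 1, 11, 100 and 300 mg/kg/d, and -0.61 to -0.19 for 300 against 100. Without libraries 05 and 18, Rpl26 and Rps27 at 100 mg/kg/d reversed to -0.11 and -0.041 and Rps3a for 300 against 100 to 0.15. Apart from the effect of removing libraries, the cause of these moves was not tested. The alternatives with RLE factors, TMM factors without these genes, library totals, the sample code and a minimum of 1 TPM moved no count of the 70 genes called after adjustment by over 1.5 times and no median of these genes by more than 0.14, the SD of the vehicle libraries' medians; at 300 mg/kg/d the median was 0.05 with library totals and 0.06 with the code. Library totals raised the slopes at an unadjusted p under 0.05 from 7 to 15 of the 70 genes. Depth limits mainly the rarest loci, such as Rpl36a on chromosome 10 at 1.18 to 3.27 CPM.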

Other observations

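Spike-in RNA gave another view of the same libraries, with the caution that the sources used here do not give the amount added to each. ERCC rows took 0.608% to 1.37% of all counts. The 70 ribosomal protein genes had 3.82, 4.65 and 3.48 counts per ERCC count in vehicle, 3.47, 4.20 and 5.74 at 1 mg/kg/d, and 3.44, 4.57 and 4.19 at 11 mg/kg/d. At 100 mg/kg/d the values were 6.24, 5.35 and 3.98 in libraries 05, 18 and 19, and at 300 mg/kg/d they were 4.64, 4.59, 4.82, 5.46 and 7.33. Libraries 05 and 18 were above all 3 vehicle libraries by this measure, and the highest value of the study was that of library 20 at 300 mg/kg/d, which had the lowest share of gene counts of its group.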
